A study of Rattus norvegicus with 10 samples.

Results

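The genes for protein kinases and protein phosphatases were followed in lens capsules of rats, the membrane around the lens with the lens epithelium on its inner face. Their members were the rows of the deposited table whose gene name began with 1 of a set of family prefixes, such as Mapk, Prk, Cdk, Ppp, Ptp and Dusp. The rule took 69 of 3334 genes, 47 with kinase names and 22 with phosphatase names. Names did not always mark enzymes. Of the kinase names, 35 were catalytic, 3 were regulatory subunits and 9 were scaffolds or other genes that the prefixes took. Of the phosphatase names 15 were catalytic and 7 regulatory. Kinases with other name roots were not members, so that the set was a part of the kinome.

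The animals were male Sprague-Dawley rats aged 6 weeks, 5 in each group, and each sample pooled both capsules of 1 rat. In the Hypothermia Group the isolated lens was held in Hibernate-A, a medium made to keep tissue alive in the cold, at 4°C for 8 h before the capsule was removed. In the Normal Group the capsules were taken straight after death, with no time in medium. Cold, medium and time outside the body therefore cannot be told apart in any value below, and in bulk tissue fewer cells of a type and less RNA per cell cannot be told apart either.

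Kinases move a phosphate group from ATP to serine, threonine or tyrosine residues of other proteins, and phosphatases take it off again, so that the pair sets how long a signal lasts. In the MAP kinase cascade kinases act in a row, scaffolds hold them together and dual-specificity phosphatases switch the last of them off. In the lens, growth factor signals that pass through ERK and Akt kinases are known to govern the division of epithelial cells and their turning into fibre cells.

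The table was a list selected by its outcome, since the smallest difference between the group means of any gene in it was 0.25 on the log2 scale, so that a member's being listed, or passing a test, repeats that selection. Counts of members were therefore read beside the same counts over all tested genes. Values per rat are normalized counts, that is read counts divided by the authors' size factor of the rat, and fold changes are Hypothermia over Normal. A gene was called higher or lower when its p, from edgeR's quasi-likelihood test and adjusted by Benjamini and Hochberg as if 17000 genes had been tested, was under 0.05. The listed genes held 9026144 to 12415121 counts per rat in the Hypothermia Group and 4792595 to 8177803 in the Normal Group, while the size factors ran from 0.744 to 0.980 and from 1.08 to 1.26. Of 23 lens fibre markers 21 were listed, all 21 called higher, and their summed normalized count ran from 849386 to 3950384 in the Normal rats and from 5524156 to 11713210.0 in the Hypothermia rats. Of 14 lens epithelial markers 5 were listed (summed 32803 to 37712 in the Normal Group and 28946 to 32495 in the Hypothermia Group). Gja1 was the largest part of this sum, with means of 21063 and 15600. Maf and Pitx3 were called higher at 0.64 (SE 0.14, adjusted p = 0.0134) and 0.34 (SE 0.08, adjusted p = 0.0198), and Pax6 was called lower at -0.26 (SE 0.08, adjusted p = 0.0498). Not called were Gja1 at -0.43 (SE 0.14, adjusted p = 0.0567) and Epha2 at 0.81 (SE 0.29, adjusted p = 0.103). Markers of pigment cells (4 of 8 listed) summed to 133 to 320.0 and 29.6 to 124 in the same order, while 1 of 10 retinal and 0 of 10 blood and vessel markers were listed, so that the rest were not analysed here. The part of any of these in the members' values was not tested.

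Of the 69 members 65 passed the filter on low counts, and 28 of them were called higher and 18 lower. Among the 44 tested kinase names 19 were called higher (43.2%) and 13 lower (29.5%), against 52.3% and 20.5% of all 3222 tested genes. The phosphatase names gave 9 higher (42.9%) and 5 lower (23.8%) of 21. Calls beyond 1 on the log2 scale numbered 4 kinase names higher and none lower, where all genes had 10.3% higher and 1.89% lower, and the phosphatase names had 4 higher and 2 lower. All 5 Hypothermia rats lay above all 5 Normal rats for 17 kinase and 10 phosphatase names, 41.5% of the members tested, and below them for 14 and 3, or 26.2%, and all tested genes gave 41.9% and 16.7%. The median fold change was -0.01 for kinase names, 0.30 for phosphatase names and 0.36 for all tested genes on the log2 scale. These shares describe the members, and no difference from the other genes was tested.

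Enzymes and their partners were counted apart. Of the 34 catalytic kinases tested, 13 had a fold change above 0 and 21 below it, with 11 called higher and 12 lower. All 3 kinase regulatory subunits (Prkag2, Prkab2 and Csnk2b) were called higher, and of 7 scaffolds and other genes 5 were called higher and 1, Mapkbp1, lower. Among all tested genes 63.7% had a fold change above 0, and 52.3% were called higher and 20.5% lower. Catalytic phosphatases had 6 called higher and 4 lower of 14, and regulatory phosphatase subunits 3 and 1 of 7.

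These directions hold on the authors' scaling. With TMM factors from the table itself, and p-values adjusted for the tested genes alone, the median of all genes moved by -0.29, and the calls became 9 higher and 22 lower for kinase names (29.0% of calls higher, from 59.4%) and 7 higher and 8 lower for phosphatase names (46.7%, from 64.3%). All tested genes went from 71.8% to 47.1% of calls higher under the same setting, with 1040 higher and 1167 lower. The other scalings all moved fold changes down, with medians of -0.29 (TMM), -0.31 (median-of-ratios) and -1.23 (totals of the listed genes). A member below 0 could therefore not turn, and all 30 stayed below it under each of the 4 scalings tried. That they stayed says nothing of how firm their directions are. These other scalings came from the selected list alone, where 63.7% of tested genes lay above 0. For a member above 0, staying or turning under them therefore follows the size of its fold change. It is no test of the authors' scaling, here or for the genes below. Of the 35 above 0, 6 stayed above it under all 4 scalings, namely Map3k5, Mapk8ip1, Stk39, Ptprm, Ptpru and Dusp8. These were the 6 with the largest fold changes. The other 29 turned when scaled to the total of the listed genes, which moved the median by -1.23. Those totals include the reads of the 21 listed fibre markers. The median of their summed normalized count was 2063521 in the Normal rats and 7216247 in the Hypothermia rats. The part of the fibre reads in this shift, here and for each gene below, was not tested. Akt1s1, Cdk10, Prkaca and Ptpa turned under TMM too, and these with Ppp1r10, Ppp2cb and Rps6kb2 under median-of-ratios factors. With each rat left out in turn the kinase calls ran from 12 higher (without Hypothermia 5, Normal 3 or Normal 5) to 19, and from 6 lower (without Normal 4, and 7 without Normal 5) to 19. The phosphatase calls ran from 5 higher (without Hypothermia 1 or 3, or Normal 3, 4 or 5) to 11, and from 1 lower (without Normal 4) to 5, with 2 without Hypothermia 3 or 5 or Normal 5 and 3 without Hypothermia 1 or 4 or Normal 1 or 3.

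**Figure D1:**
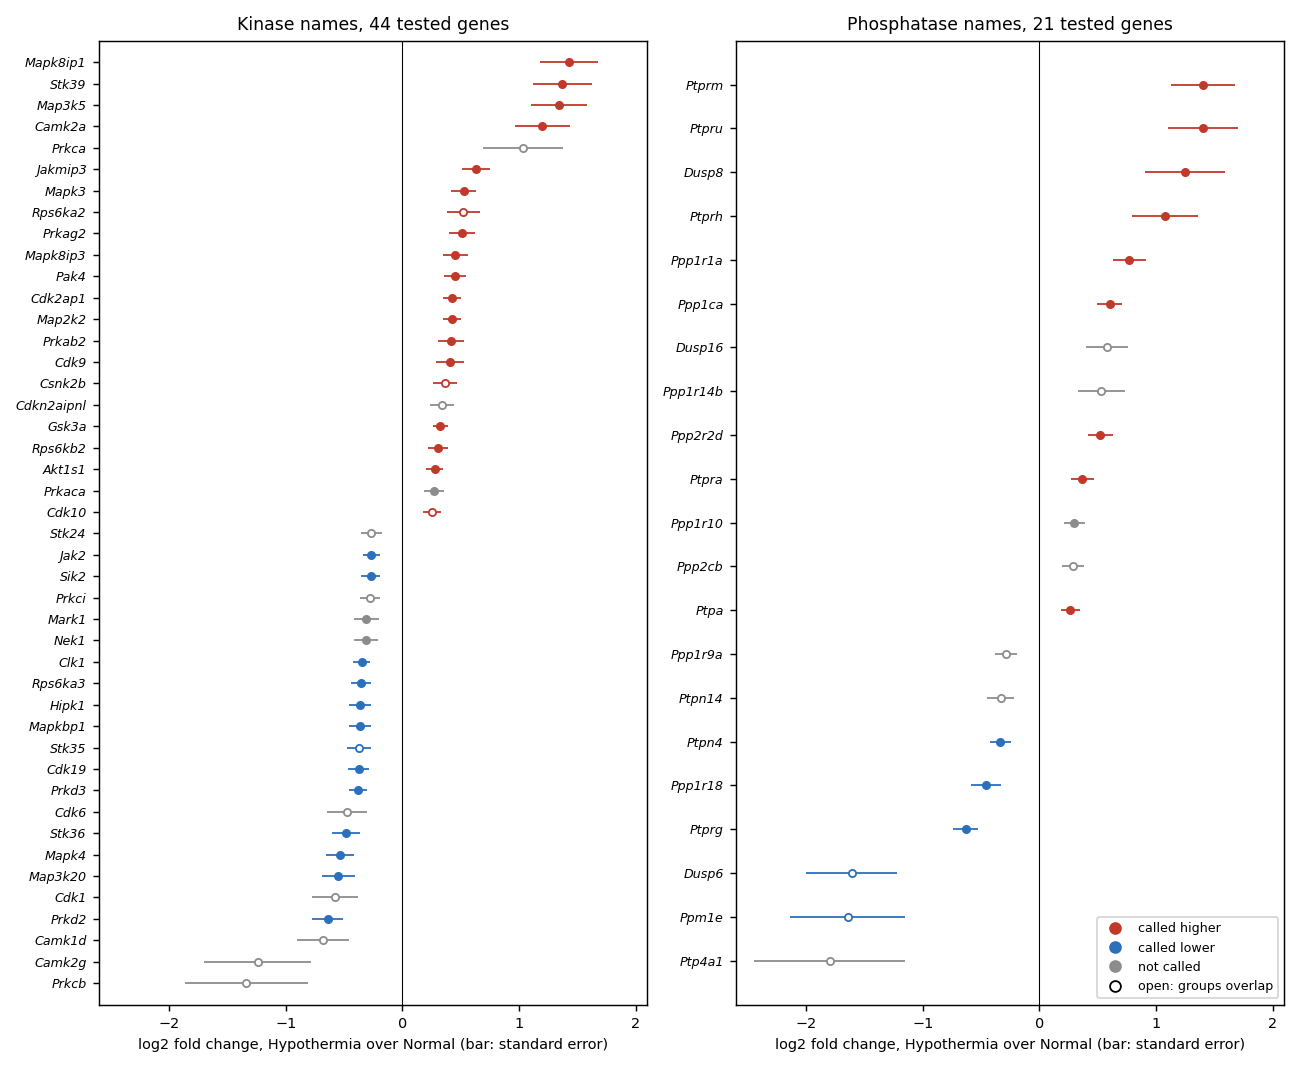
Log2 fold change of the 65 tested members, Hypothermia over Normal, with a bar of 1 SE, kinase names left and phosphatase names right; red points were called higher, blue lower and grey not called, and open points mark genes whose groups overlap. Kinase names spread to both sides of 0, from -1.34 to 1.43, and the phosphatase names run from -1.80 to 1.40.

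The MAP kinase cascade had 11 members, of which 10 were tested (all but Map3k7cl) and all 10 called, 6 higher and 4 lower, where 52.3% of all tested genes were called higher and 20.5% lower. The 4 of the 6 other than Map3k5 and Mapk8ip1 turned below 0 when scaled to listed-gene totals. The largest fold changes were those of a kinase and a scaffold of the stress-activated branch. Map3k5 (ASK1; chromosome 1, 15412603 to 15613746, plus strand of Rnor_6.0) encodes a kinase at the top of the JNK and p38 branches that answers to oxidative stress. Its normalized counts were 205, 154, 78.0, 141 and 127 in Normal rats 1 to 5 and 435, 289, 451, 248 and 365 in Hypothermia rats 1 to 5. The groups did not overlap, and Normal 3 was the lowest of all. The fold change on the log2 scale was 1.34 (SE 0.24, adjusted p = 0.00683). Mapk8ip1 (JIP1; chromosome 3, 81295024 to 81304181, minus strand) encodes a scaffold that brings JNK together with the kinases above it. It counted 2247, 1284, 792, 1138 and 1382 in the Normal rats and 3614, 3463, 3392, 2911 and 5072 in the Hypothermia rats. Here too every Hypothermia rat exceeded every Normal rat, with Hypothermia 5 highest and Normal 3 lowest, and the fold change was 1.43 (SE 0.25, adjusted p = 0.00627). Mapk8ip3 (JIP3), a scaffold that also links JNK to kinesin motors, had a smaller fold change of 0.45 (SE 0.11, adjusted p = 0.0156), with 1004, 1027, 836, 998 and 991 in the Normal rats and 1678, 1267, 1233, 1309 and 1165 in the Hypothermia rats. Its values stood apart in both directions at single rats, Hypothermia 1 above the rest of its group and Normal 3 below the rest of its own. Mapkbp1, a binding partner of JNK, went the other way, -0.36 (SE 0.09, adjusted p = 0.0238), its highest Hypothermia rat at 540.5 and its lowest Normal rat at 560.4. The call of Mapkbp1 was lost without Hypothermia 1 or 4 or Normal 3, 4 or 5 (adjusted p from 0.0509 to 0.0651).

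Map3k20 (ZAK; chromosome 3, 58965552 to 59067369, plus strand), a kinase known for sensing stalled ribosomes and osmotic shock, was called lower in contrast to Map3k5. The Normal rats counted 214, 237, 259, 233 and 211 and the Hypothermia rats 124, 204, 148, 182 and 129. The groups did not overlap, although Hypothermia 2 came close to the lowest Normal rat. Its fold change was -0.55 (SE 0.14, adjusted p = 0.0254), and the call of Map3k20 was lost without Hypothermia 1, 3 or 5 or Normal 2, 3 or 4 (adjusted p from 0.0521 to 0.0629). Map3k20 was 1 of 2 members with the letters GAANNTTC, a part of the heat shock element, in the 300 bases around the gene start, the other being Dusp16. In Map3k20 these letters begin 31 bases after the start, and whether any factor binds them was not tested. The promoter window, from 250 bases before to 50 after the start, is shown because the gene was called, with the match in capitals. It was read from RefSeq on GRCr8 (chr3:77537896-77538195, plus strand), a later build than the Rnor_6.0 of the counts. This motif reads the same on both strands and was found in 8.59% of 33469 rat promoters, so that 2 of the 53 members with an entry is a description only.
Map3k20: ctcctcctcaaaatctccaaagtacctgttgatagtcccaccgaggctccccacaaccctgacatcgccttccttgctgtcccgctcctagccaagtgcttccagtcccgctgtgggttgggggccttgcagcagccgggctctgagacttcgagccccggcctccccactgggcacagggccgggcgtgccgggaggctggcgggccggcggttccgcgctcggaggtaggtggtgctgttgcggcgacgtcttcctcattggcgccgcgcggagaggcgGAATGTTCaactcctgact

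In the ERK branch both listed kinases of the main line were called higher, as were 52.3% of all tested genes. Map2k2 (MEK2; chromosome 7, 11458967 to 11478489, minus strand), which phosphorylates ERK, counted 1576, 1641, 1376, 1473 and 1587 in the Normal rats and 1999, 1918, 2001, 2111 and 2250.3 in the Hypothermia rats. Mapk3 (ERK1; chromosome 1, 198192773 to 198198975, plus strand) counted 1763, 1571, 1251, 1444 and 1594 and 2119.7, 1983, 2401, 1969.8 and 2516. Neither gene's groups overlapped, where 41.9% of all tested genes were higher without overlap, and for both Normal 3 was the lowest rat. The fold changes were 0.43 (SE 0.08, adjusted p = 0.00623) for Map2k2 and 0.53 (SE 0.11, adjusted p = 0.00949) for Mapk3, and both turned below 0 when scaled to listed-gene totals. Mapk4 (ERK4), an atypical MAP kinase outside the MEK-ERK line, was lower at -0.54 (SE 0.12, adjusted p = 0.0139), from 561, 430.3, 497, 419.9 and 414 in the Normal rats to 323, 381, 254, 303 and 341 in the Hypothermia rats. All Hypothermia rats lay below all Normal rats for Mapk4. The 2 ribosomal S6 kinases of the RSK family, which ERK activates, moved apart. Rps6ka2 (RSK3) was called higher at 0.52 (SE 0.14, adjusted p = 0.0286), with groups that overlapped at Hypothermia 4 (581) and Normal 1 (629.9), while Rps6ka3 (RSK2), on chromosome X, was called lower at -0.35 (SE 0.08, adjusted p = 0.0177) with no overlap. The call of Rps6ka2 was lost without Hypothermia 1, 2 or 5 or Normal 3, 4 or 5 (adjusted p from 0.05005 to 0.0717). The fold change of Rps6ka2 also turned when scaled to listed-gene totals.

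The dual-specificity phosphatases, which remove phosphate from both the threonine and the tyrosine of MAP kinases, did not share a direction. Dusp6 (chromosome 7, 41475163 to 41479392, plus strand), the ERK-specific phosphatase of the cytoplasm and itself an ERK target gene, counted 84.2, 102, 47.7, 126 and 146 in the Normal rats and 65.1, 16.7, 31.4, 19.4 and 33.6 in the Hypothermia rats. Only Hypothermia 1 reached into the range of the Normal rats, above Normal 3. It was called lower, -1.61 (SE 0.39, adjusted p = 0.0195), and the call of Dusp6 was lost without Hypothermia 3 or Normal 4 or 5 (adjusted p from 0.0511 to 0.0512). Dusp4, which acts on ERK and JNK in the nucleus, was too low to be tested, with 10.2, 6.54, 14.3, 8.80 and 27.5 in the Normal rats and 9.65, 1.05, 1.26, 2.04 and 1.34 in the Hypothermia rats. Except for Hypothermia 1, which stood far above the others of its group, its Hypothermia rats lay below every Normal rat. Dusp8 (chromosome 1, 215030429 to 215033460, minus strand), known for acting on JNK and p38, was called higher instead. Its Normal rats counted 88.8, 73.6, 29.4, 48.8 and 73.2 and its Hypothermia rats 200.2, 93.0, 236, 114 and 102, with no overlap between the groups. Hypothermia 1 and 3 were well above the other 3, which lay close to the Normal rats, and the fold change was 1.25 (SE 0.34, adjusted p = 0.0317). The call of Dusp8 was lost without Hypothermia 1 or 3 or Normal 2, 3, 4 or 5 (adjusted p from 0.0512 to 0.0836). Dusp16, a JNK phosphatase whose promoter window holds the letters GAANNTTC named above, had 235, 205, 170.3, 188 and 181 against 289, 231, 443, 284 and 215. It was not called at 0.58 (SE 0.18, adjusted p = 0.0560), and Hypothermia 3 was its highest rat.

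**Figure D2:**
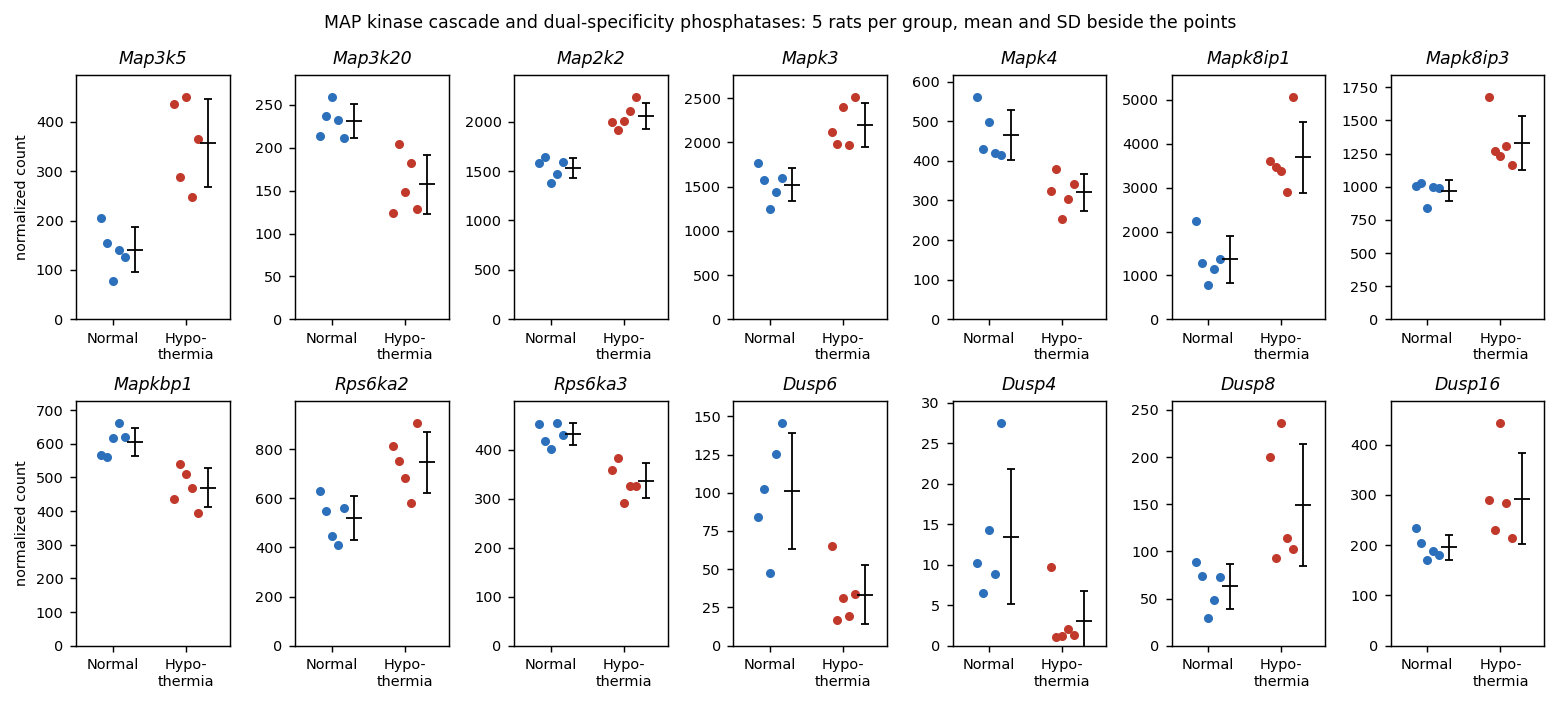
Normalized count in each rat (points) of 14 members of the MAP kinase cascade and its dual-specificity phosphatases, with the mean and SD of the 5 rats of each group beside the points and every axis starting at 0, where the lower bar of Dusp4 is cut off. Map3k5 and Mapk8ip1 sit higher in all Hypothermia rats, Dusp6 is lower in all but Hypothermia 1, and Dusp8 is higher with a wide spread.

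Among the STE20 kinases 2 of 3 were called higher, with 52.3% of all tested genes called higher. Stk39 (SPAK; chromosome 3, 54359451 to 54625414, minus strand) relays WNK kinase signals to the sodium, potassium and chloride cotransporters that set cell volume. Its counts were 558, 357, 235, 337 and 401 in the Normal rats and 915, 662, 1067, 785 and 1449.6 in the Hypothermia rats. No Hypothermia rat fell within the Normal range, Hypothermia 5 was highest and Normal 3 lowest, and the fold change was 1.37 (SE 0.25, adjusted p = 0.00760). Pak4, a kinase of the actin cytoskeleton below Cdc42, had a smaller one, 0.45 (SE 0.09, adjusted p = 0.00972), with 574 to 721 in the Normal Group and 777 to 1008 in the Hypothermia Group, and turned below 0 when scaled to listed-gene totals. Stk24 was not called, -0.27 (SE 0.09, adjusted p = 0.0709).

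Of the kinases that calcium and calmodulin switch on, Camk2a (chromosome 18, 56193978 to 56295869, plus strand) was called higher. This subunit of calmodulin kinase II is best known from neurons and its level here was low, 1.14 ± 0.226 FPKM in the Normal Group and 2.64 ± 0.636 in the Hypothermia Group (SD, n = 5). The normalized counts were 26.8, 34.4, 19.9, 32.0 and 31.1 in the Normal rats and 71.1, 59.6, 46.4, 65.3 and 90.0 in the Hypothermia rats, without overlap, and the fold change was 1.20 (SE 0.24, adjusted p = 0.00858); when scaled to listed-gene totals it was -0.02. Camk2g, another subunit of the same enzyme, was not called at -1.24 (SE 0.46, adjusted p = 0.107). Its Normal rats counted 36.1, 101, 48.5, 55.2 and 190.4 and its Hypothermia rats 15.7, 39.7, 46.4, 40.8 and 39.0, with Normal 5 highest. With each rat left out in turn the fold change ran from -1.43 to -0.73, the latter without Normal 5. Camk1d, of the calmodulin kinase I family, was not called either, -0.68 (SE 0.22, adjusted p = 0.0646).

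Protein kinases C and D, most of which respond to diacylglycerol, split by member. Both listed kinases D were called lower without overlap, Prkd2 at -0.64 (SE 0.14, adjusted p = 0.0104) and Prkd3 at -0.38 (SE 0.07, adjusted p = 0.00840). Of all tested genes 20.5% were called lower, and 16.7% were lower without overlap. Prkd2 counted 156, 195, 162, 178 and 148 in the Normal rats and 89.2, 122, 102, 98.0 and 126 in the Hypothermia rats. Of the kinases C, none was called. Prkca had the largest fold change above 0, 1.04 (SE 0.34, adjusted p = 0.0712), with 148, 71.2, 54.1, 122 and 149 in the Normal rats against 217, 165, 188, 148 and 399, and Hypothermia 5 was far above the rest. Prkcb had 40.7, 24.5, 19.1, 107 and 104 against 38.6, 24.0, 10.04, 23.5 and 20.2, high only in Normal 4 and Normal 5, and -1.34 (SE 0.53, adjusted p = 0.142). These were also the 2 rats with the highest sum of the 3 listed markers of ciliary body and iris stroma (Col1a1, Mfrp and Myoc, of 10), 1236 and 1372 beside 214 to 494 in the other Normal rats and 54.1 to 286 in the Hypothermia rats. Most of both sums was Mfrp alone, 696 in Normal 4 and 1301 in Normal 5. Col1a1 had 534 in Normal 4 but 60.4 in Normal 5, below the 271 of Normal 3, and Myoc was at most 15.5 in any rat. The part of these markers in the Prkcb values was not tested. Prkci, an atypical kinase C of cell polarity that does not respond to diacylglycerol, had -0.27 (SE 0.08, adjusted p = 0.0511). Prkaca, the catalytic subunit of the cAMP-dependent kinase, was not called at 0.27 (SE 0.09, adjusted p = 0.0550), although its groups did not overlap, and its fold change turned below 0 under TMM, median-of-ratios and listed-gene totals.

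AMP-activated protein kinase senses a fall of ATP. Its gamma 2 subunit Prkag2, which binds AMP, counted 293, 321, 265, 236 and 243 in the Normal rats and 385, 321, 432, 369 and 429 in the Hypothermia rats. The beta 2 subunit Prkab2, which holds the complex together, counted 412, 408, 366, 326 and 359.7 and 470.2, 441, 587, 416 and 587. For both genes the Hypothermia rats lay above the Normal rats, as for 41.9% of all tested genes. The margin was narrow, Prkag2 with only 320.9 in Hypothermia 2 and 320.7 in Normal 2. Both genes turned below 0 when scaled to listed-gene totals. The fold changes were 0.51 (SE 0.11, adjusted p = 0.0122) and 0.42 (SE 0.11, adjusted p = 0.0323), and the call of Prkab2 was lost without Hypothermia 1, 3 or 5 or Normal 3, 4 or 5 (adjusted p from 0.0511 to 0.0846). The related kinases pointed down, Sik2 being called lower at -0.27 (SE 0.08, adjusted p = 0.0496) and Mark1, a kinase of microtubule-binding proteins, not called at -0.31 (SE 0.11, adjusted p = 0.0822). The call of Sik2 was lost without Hypothermia 3, 4 or 5 or Normal 2, 3, 4 or 5 (adjusted p from 0.0675 to 0.131). In the Akt and mTOR line no Akt gene was listed. Gsk3a, a kinase that Akt inhibits, was called higher at 0.33 (SE 0.07, adjusted p = 0.00975), as were Rps6kb2, a ribosomal S6 kinase, at 0.31 (SE 0.09, adjusted p = 0.0371) and Akt1s1 (PRAS40), an inhibitor within mTORC1, at 0.28 (SE 0.07, adjusted p = 0.0246). None of the 3 kept a fold change above 0 when scaled to listed-gene totals, and on the authors' scaling 52.3% of all tested genes were called higher. The call of Rps6kb2 was lost without Hypothermia 1, 3, 4 or 5 or Normal 1, 2, 3 or 5 (adjusted p from 0.0572 to 0.0904). The call of Akt1s1 was lost without Hypothermia 3 or 5 or Normal 3, 4 or 5 (adjusted p from 0.0541 to 0.0663). Csnk2b, the regulatory subunit of casein kinase 2, was called higher at 0.36 (SE 0.10, adjusted p = 0.0314) with overlapping groups, and the call of Csnk2b was lost without Hypothermia 1, 3, 4 or 5 or Normal 3, 4 or 5 (adjusted p from 0.0536 to 0.0845).

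The 7 names with the prefix Cdk, most of them cyclin-dependent kinases, gave 3 called higher and 1 lower, where 52.3% and 20.5% of all tested genes were. The kinases of transcription differed, with Cdk9, of the elongation factor P-TEFb, at 0.41 (SE 0.12, adjusted p = 0.0412) and Cdk10 at 0.26 (SE 0.08, adjusted p = 0.0484), against Cdk19, of the Mediator complex, at -0.37 (SE 0.09, adjusted p = 0.0167). The call of Cdk9 was lost without Hypothermia 1, 3 or 5 or Normal 3, 4 or 5 (adjusted p from 0.0734 to 0.0991). The call of Cdk10 was lost without Hypothermia 2, 3, 4 or 5 or Normal 1, 3, 4 or 5 (adjusted p from 0.0730 to 0.128). Cdk19 counted 868, 964, 1026, 912 and 871 in the Normal rats and 749, 804, 600.0, 727 and 701 in the Hypothermia rats, with no overlap. The partner Cdk2ap1, an inhibitor of Cdk2, was called higher at 0.43 (SE 0.08, adjusted p = 0.00728). All the higher members of this family turned below 0 when scaled to listed-gene totals, and Cdk10 also under TMM. Cdkn2aipnl, which is not a kinase and was taken by the prefix Cdk alone, was not called at 0.34 (SE 0.10, adjusted p = 0.0504). The cell-cycle kinases Cdk1, of mitosis, and Cdk6, of the G1 phase, were not called, at -0.58 (SE 0.20, adjusted p = 0.0787) and -0.47 (SE 0.17, adjusted p = 0.102). Cdk1 had 212, 183, 199.7, 144 and 132 in the Normal rats and 86.8, 112, 99.2, 170.4 and 114 in the Hypothermia rats, where Hypothermia 4 lay among the Normal values.

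Clk1 (chromosome 9, 65296778 to 65307995, minus strand), which phosphorylates the SR proteins of splicing, had the highest level of any member in the Normal Group, 130 ± 3.72 FPKM in the Normal Group and 102 ± 5.08 in the Hypothermia Group (SD, n = 5). It counted 3731, 4022, 3787, 3847 and 3875 in the Normal rats and 2975, 3173, 3191, 2859 and 2922 in the Hypothermia rats. The values of each group lay close together and did not overlap, and the fold change was -0.35 (SE 0.07, adjusted p = 0.00951). Hipk1, a nuclear kinase of homeodomain transcription factors, had a like fold change, -0.36 (SE 0.09, adjusted p = 0.0246). The call of Hipk1 was lost without Hypothermia 3 or 4 or Normal 4 or 5 (adjusted p from 0.0603 to 0.0689). Stk36, which takes part in Hedgehog signalling and motile cilia, was called lower at -0.48 (SE 0.12, adjusted p = 0.0224) without overlap, and Nek1, a kinase of primary cilia, had -0.31 (SE 0.10, adjusted p = 0.0680). Stk35, a nuclear kinase, was called lower at -0.37 (SE 0.10, adjusted p = 0.0341), though Hypothermia 2 lay within the Normal range. The call of Stk35 was lost without Hypothermia 1, 3, 4 or 5 or Normal 3, 4 or 5 (adjusted p from 0.0660 to 0.0901). The call of Stk36 was lost without Hypothermia 3 or 5 or Normal 4 or 5 (adjusted p from 0.0511 to 0.0593). Jak2, the kinase of cytokine receptors, was lower at -0.27 (SE 0.07, adjusted p = 0.0308), from 791, 727, 687, 764 and 764 to 625, 675, 649, 591 and 559, and the call of Jak2 was lost without Hypothermia 1, 4 or 5 or Normal 1, 2, 4 or 5 (adjusted p from 0.0511 to 0.0767). Jakmip3, a partner of Jak kinases by name, was higher at 0.63 (SE 0.12, adjusted p = 0.00704), with Hypothermia 3 far above the others of its group, and turned below 0 when scaled to listed-gene totals.

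Among the listed phosphatase names the catalytic subunit of protein phosphatase 1 had the highest FPKM in the Normal Group. Ppp1ca (chromosome 1, 219439953 to 219443570, plus strand), which encodes it, had 109 ± 13.8 FPKM in the Normal Group and 165 ± 16.3 in the Hypothermia Group (SD, n = 5). Its normalized counts were 3146, 2999.8, 2503, 2410.4 and 2461 in the Normal rats and 3955, 3586, 4518, 3954 and 4514 in the Hypothermia rats. There was no overlap, and the fold change was 0.60 (SE 0.11, adjusted p = 0.00608). Ppp1r1a, an inhibitor of PP1 that the cAMP-dependent kinase activates, counted 3029, 2634, 2124, 2622 and 3315 and 4634, 3891, 5435, 3996 and 5452. It too had no overlap, with Normal 3 lowest, and was called higher at 0.77 (SE 0.14, adjusted p = 0.00640). The catalytic subunit and its inhibitor were thus both called higher on the authors' scaling, as were 52.3% of all tested genes. Both turned below 0 when scaled to listed-gene totals. Ppp1r18, a subunit that targets PP1 to actin, was called lower at -0.46 (SE 0.13, adjusted p = 0.0363), and the call of Ppp1r18 was lost without Hypothermia 1, 4 or 5 or Normal 1, 3 or 4 (adjusted p from 0.0618 to 0.101). Ppp1r14b, another inhibitor, Ppp1r10, a nuclear targeting subunit, and Ppp1r9a (neurabin) were not called, at 0.53 (SE 0.20, adjusted p = 0.126), 0.30 (SE 0.09, adjusted p = 0.0501) and -0.29 (SE 0.09, adjusted p = 0.0608).

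All 3 listed genes of protein phosphatase 2A had fold changes above 0, as had 63.7% of all tested genes, and all 3 turned below 0 when scaled to listed-gene totals. Ppp2r2d (chromosome 1, 211205903 to 211239888, plus strand), a B-type subunit that directs the enzyme to its substrates, counted 388, 401, 339, 333 and 375 in the Normal rats and 475, 490.3, 519.7, 476 and 679.8 in the Hypothermia rats. Its groups did not overlap, and it was called higher at 0.52 (SE 0.11, adjusted p = 0.0101). Ptpa, an activator of the enzyme, was called at 0.27 (SE 0.08, adjusted p = 0.0472), and the call of Ptpa was lost without Hypothermia 1, 3, 4 or 5 or Normal 3, 4 or 5 (adjusted p from 0.0714 to 0.125). The catalytic subunit Ppp2cb, with 1607, 1382, 1306, 1279 and 1211 against 1688, 1528, 1865, 1605 and 1597, was not called at 0.29 (SE 0.09, adjusted p = 0.0569). Ppp2r2d and Ptpru, described next, were the 2 members whose promoter window held a full cAMP response element, searched as TGACGTCA, which reads the same on both strands and was found in 1.83% of the 33469 promoters. Both genes were called higher, as were 52.3% of all tested genes, and 2 of the 53 members with an entry is a description only. Their windows are shown from RefSeq on GRCr8 with the match in capitals, for Ppp2r2d (chr1:203095332-203095631, plus strand) and Ptpru (chr5:149308784-149309083, minus strand).
Ppp2r2d: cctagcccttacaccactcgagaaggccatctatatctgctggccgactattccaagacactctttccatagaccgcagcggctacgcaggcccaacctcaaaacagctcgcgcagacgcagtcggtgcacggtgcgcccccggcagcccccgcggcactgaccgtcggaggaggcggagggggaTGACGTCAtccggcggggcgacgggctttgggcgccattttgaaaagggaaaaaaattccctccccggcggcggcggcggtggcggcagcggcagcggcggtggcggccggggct
Ptpru: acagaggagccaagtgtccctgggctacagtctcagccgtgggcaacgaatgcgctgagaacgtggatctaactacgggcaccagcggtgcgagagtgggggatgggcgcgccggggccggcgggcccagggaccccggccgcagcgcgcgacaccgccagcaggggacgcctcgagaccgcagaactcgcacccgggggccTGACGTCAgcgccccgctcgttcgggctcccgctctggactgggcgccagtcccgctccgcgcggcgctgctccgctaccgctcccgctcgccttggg

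The receptor-type tyrosine phosphatases, membrane proteins of cell contact, had 4 of 5 members called higher, against 52.3% of all tested genes, and Ptprh and Ptpra of these turned below 0 when scaled to listed-gene totals. Ptpru (chromosome 5, 149922352 to 149996334, minus strand) and Ptprm (chromosome 9, 114846095 to 115555261, minus strand) belong to the subfamily with a MAM domain, known for binding between neighbouring cells and for acting at cadherin contacts. Ptpru counted 2612, 1971, 921, 2168 and 2676 in the Normal rats and 7081, 3671, 7283, 3728 and 5581 in the Hypothermia rats. Ptprm counted 245, 147, 133, 182 and 223 and 707, 305, 628, 296 and 528. In both genes the groups did not overlap, where 41.9% of all tested genes were higher without overlap. Hypothermia 1 and 3 were the highest rats, Hypothermia 2 and 4 the lowest of their group, and Normal 3 the lowest of all. The fold changes were 1.40 (SE 0.30, adjusted p = 0.0131) and 1.40 (SE 0.28, adjusted p = 0.00962). By length, Ptpru was the more abundant, 21.3 ± 7.30 FPKM in the Normal Group and 56.4 ± 18.0 in the Hypothermia Group (SD, n = 5), while Ptprm had 2.09 ± 0.539 FPKM in the Normal Group and 5.53 ± 2.09 in the Hypothermia Group (SD, n = 5). Ptprh counted 144, 152, 67.6, 85.6 and 129 in the Normal rats and 279, 156, 368, 248 and 169 in the Hypothermia rats, with Hypothermia 2 only just above the highest Normal rat. Its fold change was 1.08 (SE 0.28, adjusted p = 0.0280), and the call of Ptprh was lost without Hypothermia 1, 3 or 4 or Normal 3, 4 or 5 (adjusted p from 0.0506 to 0.0749). Ptpra, which activates Src kinases, had a smaller change, 0.37 (SE 0.10, adjusted p = 0.0315), and the call of Ptpra was lost without Hypothermia 1, 3 or 5 or Normal 2, 3, 4 or 5 (adjusted p from 0.0503 to 0.0842). Ptprg (chromosome 15, 12926167 to 13228607, minus strand) was the exception in this family. It counted 309, 348, 283, 415 and 367 in the Normal rats and 215, 225, 221, 203 and 247 in the Hypothermia rats, and was called lower without overlap at -0.63 (SE 0.11, adjusted p = 0.00575).

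The non-receptor tyrosine phosphatases all had fold changes below 0, which the other scalings, all moving fold changes down, could not turn. Of all tested genes 36.3% lay below 0. Ptpn4 was called lower at -0.34 (SE 0.09, adjusted p = 0.0309), and the call of Ptpn4 was lost without Hypothermia 1, 3 or 5 or Normal 1, 3, 4 or 5 (adjusted p from 0.0512 to 0.0764). Ptpn14, which restrains the Hippo pathway effector Yap, was not called at -0.33 (SE 0.12, adjusted p = 0.0917). Ptp4a1 (PRL-1) had the lowest fold change of the members but was not called, -1.80 (SE 0.65, adjusted p = 0.0982). Its Normal rats counted 80.5, 139.9, 8.75, 138 and 34.8 and its Hypothermia rats 18.1, 43.9, 18.8, 11.2 and 22.8, so that the Normal Group spanned both ends of the range. Ppm1e, a phosphatase of calmodulin kinases and Pak, was called lower on low counts, 17.6, 11.5, 18.3, 31.2 and 24.7 against 14.5, 8.36, 2.51, 2.04 and 5.37, at -1.64 (SE 0.49, adjusted p = 0.0457). The call of Ppm1e was lost without Hypothermia 2, 3, 4 or 5 or Normal 1, 3, 4 or 5 (adjusted p from 0.0521 to 0.119).

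The other 3 members below the count filter were likewise low in the Hypothermia rats. Camkv, a pseudokinase that binds calmodulin, had 8.32, 12.3, 35.8, 11.2 and 21.1 in the Normal rats and 3.62, 5.23, 5.02, 1.02 and 5.37 in the Hypothermia rats, with no overlap. Map3k7cl had 12.9, 4.09, 2.39, 4.80 and 10.98 against 3.62, 0, 1.26, 1.02 and 0, and Stk33 had 17.6, 4.09, 2.39, 6.40 and 2.75 against 1.21, 0, 2.51, 0 and 0. Map3k7cl and Stk33 held a few reads per rat, and no fold change is given for them. Camkv, with more reads in the Normal rats, had -2.12 with an edgeR adjusted p of 0.0228 when no gene was filtered out. It passed the filter in some fits with a rat left out, with edgeR adjusted p from 0.0117 to 0.0524. Without Hypothermia 1 or 4 this was above 0.05.

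**Figure D3:**
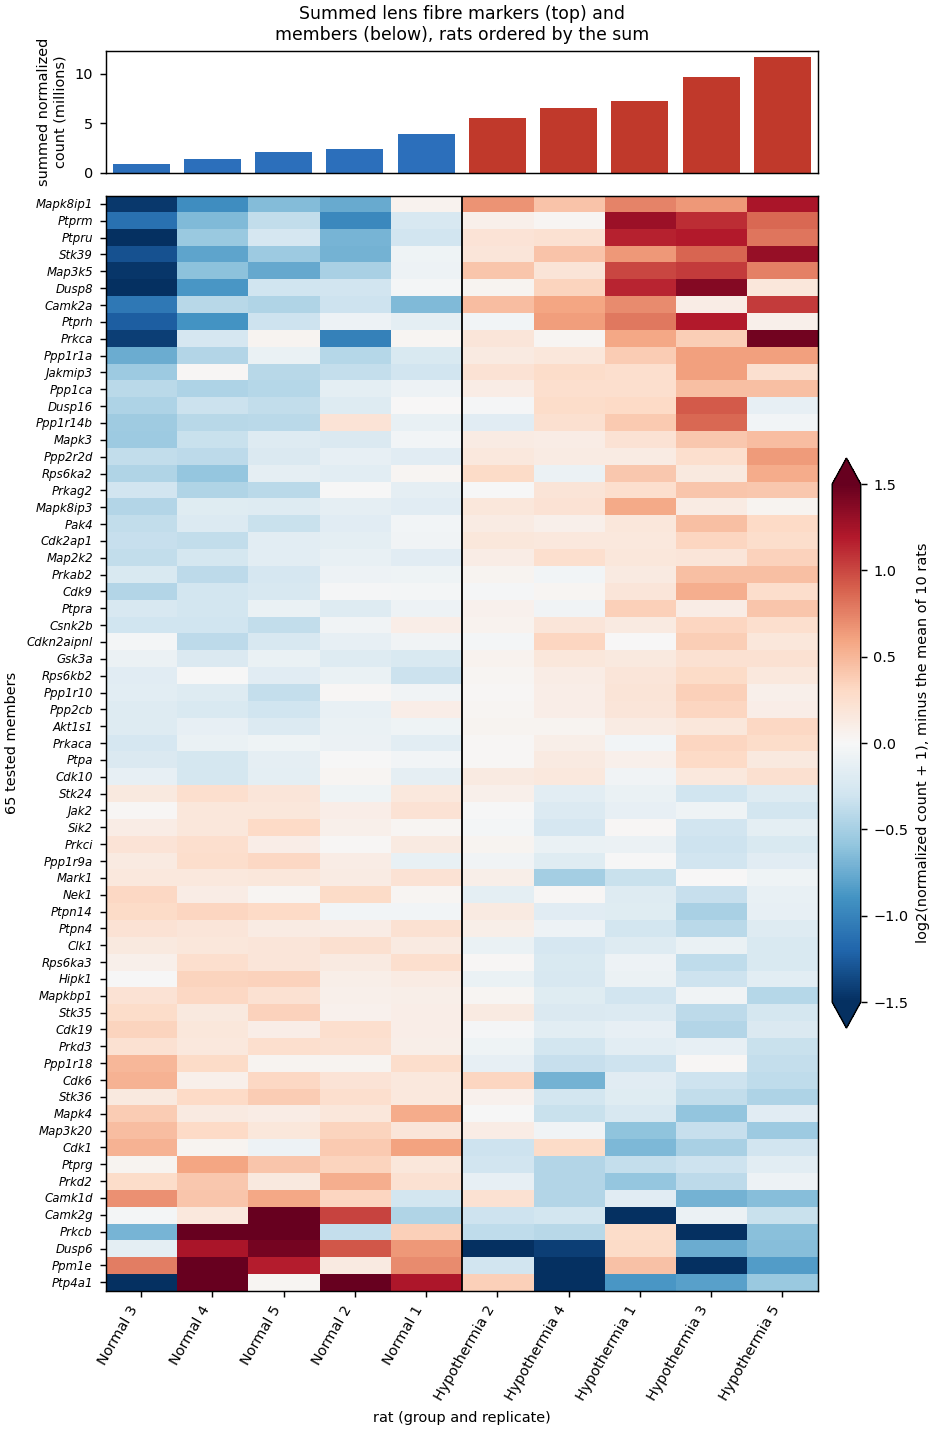
Top, summed normalized count of the 21 listed lens fibre markers in each of the 10 rats, with the rats ordered by that sum; below, log2(normalized count + 1) of each of the 65 tested members minus its mean over the 10 rats, members ordered by fold change and the colour scale capped at 1.5 in either direction. Normal 3, with the lowest fibre sum, is the bluest column for many higher members, and Prkcb, Camk2g and Ptp4a1 are high in only some of the Normal rats.

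The rats within a group were not alike. Among the 35 members with a fold change above 0, Normal 3, the rat with the lowest fibre marker sum, was the lowest Normal rat in 19 (54.3%, and in 41.4% of all 2053 genes above 0). Normal 1, with the highest fibre sum of its group, was the nearest to the Hypothermia Group in 16 of them (45.7%, and in 60.7% of all genes above 0) and Normal 2 in 11 (31.4%, and in 22.6%). Hypothermia 2, with the lowest fibre sum of its group, was the Hypothermia rat nearest to the Normal Group in 18 of the 35 (51.4%, and in 55.6% of all genes above 0), and in 17 of the 30 members below 0 (56.7%, and in 35.7% of all genes below 0). The part of the fibre markers in this order was not tested. The median coefficient of variation of the members was 13.9% in the Hypothermia Group and 11.04% in the Normal Group, beside 13.6% and 12.9% for all tested genes.

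Gene length moved with direction. The 30 members below 0 had a median length of 4186 bases in the table and the 35 above 0 one of 2220, and all tested genes had 3644 and 1628. Catalytic kinases below 0 had a median of 4517 bases and those above 0 one of 2216. With all tested genes ordered by length in classes of about 25% each, 7.06% of the shortest class lay below 0, then 21.6%, 46.8% and 69.6% of the longest. Of the members 29 fell in the longest class, where 18 lay below 0, and 4 in the shortest, where 2 did. RNA samples with an integrity number of at least 5.8 had been sequenced. The part of length or RNA integrity in the members' directions was not tested.

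**Figure D4:**
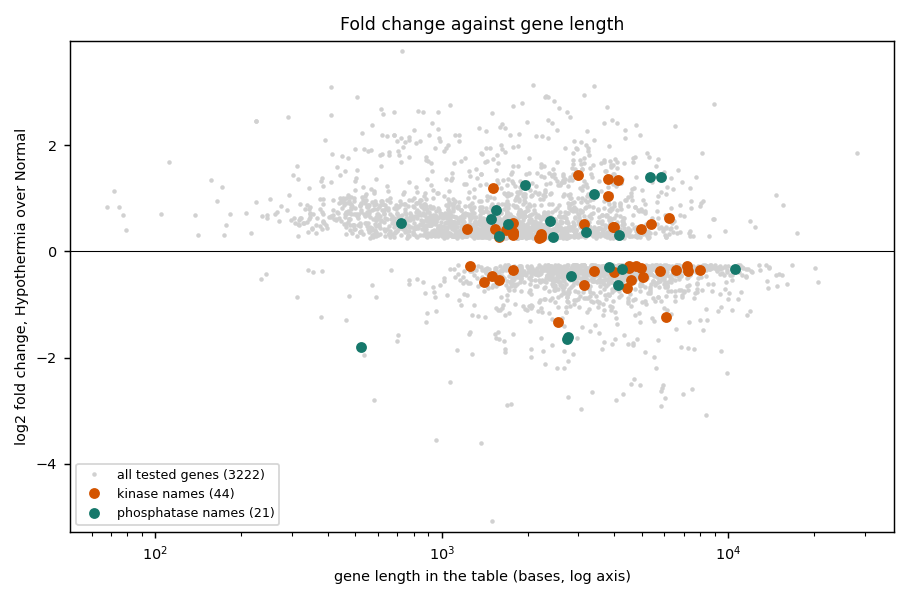
Log2 fold change, Hypothermia over Normal, against gene length in bases (log axis) for all 3222 tested genes in grey, the 44 kinase names in orange and the 21 phosphatase names in green; the empty band around 0 is where the table lists no gene. Long genes lie more often below 0, and many kinase names are among them.

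Other genes of the same pathways came from lists of names that the rule does not take. Of 40 genes of the ERK line 15 were listed, 7 called higher and 5 lower. Among the called genes the highest were Spry1 at 1.38 (SE 0.27, adjusted p = 0.00945) and Spry2 at 0.97 (SE 0.25, adjusted p = 0.0259), inhibitors of the line, and the GTPase Hras at 0.94 (SE 0.18, adjusted p = 0.00900), and the lowest were Pdgfrb at -0.87 (SE 0.18, adjusted p = 0.00965), Fgfr4 at -0.52 (SE 0.12, adjusted p = 0.0141) and Junb at -0.44 (SE 0.13, adjusted p = 0.0427). Of 31 genes of the PI3K, Akt and mTOR line 9 were listed, 3 called higher and 4 lower. The cap-binding factor Eif4e had 0.47 (SE 0.13, adjusted p = 0.0361) and its inhibitor Eif4ebp1 0.93 (SE 0.18, adjusted p = 0.00823), while the PI3K regulatory subunit Pik3r1 had -0.60 (SE 0.10, adjusted p = 0.00573). Of the calcium and calcineurin genes, Calm2, which encodes calmodulin, was called higher at 0.42 (SE 0.09, adjusted p = 0.0119) and the calcium release channel Itpr2 lower at -0.74 (SE 0.14, adjusted p = 0.00809). Cell cycle genes had 12 of 34 listed, 2 called higher and 8 lower, among them the cyclins Ccnd1 at -1.03 (SE 0.27, adjusted p = 0.0289) and Ccnb1 at -0.86 (SE 0.22, adjusted p = 0.0231), and, in the other direction, Ccng1 at 1.88 (SE 0.40, adjusted p = 0.0127). All 3 listed genes of 20 in the JAK-STAT line and both of 21 in the Hippo line were called lower, such as Socs3 at -0.57 (SE 0.17, adjusted p = 0.0441) and Wwtr1 at -0.51 (SE 0.15, adjusted p = 0.0435). When scaled to listed-gene totals the named genes above 0 turned below it, except for Spry1 and Ccng1. Those below 0 stayed there under the other scalings, which all moved fold changes down. Over all tested genes 52.3% were called higher and 20.5% lower, and no list was tested against them.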

How the data were processed

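RNA-seq of lens capsules was analysed for 5 Hypothermia and 5 Normal rats. Per the submitters' processing notes, reads were aligned to Rnor_6.0 with HISAT2 2.0.5 and counted with featureCounts 1.5.0-p3, and the groups were compared with DESeq2 1.16.1. The strand setting of the counting is not given in the sources used here, so overlapping antisense reads cannot be told apart, and reads shared between close paralogs may be split. The deposited counts are whole reads per gene without normalization, and the deposited FPKM were made by the authors from counts and gene length. The authors' 2 columns of mean normalized counts are a signal in units of counts, and each rat's size factor was recovered from them (largest relative error 9.66e-10). The authors also deposited log2 fold changes with p-values, raw and adjusted, and none of these was used.

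A quasi-likelihood model of edgeR 4.0.16 (R 4.3.3), with robust dispersions and filterByExpr, was fitted to the counts of the whole table with no term but group, and p-values were adjusted as if 17000 genes had been tested, since the table holds only part of the expressed genes. SE was obtained by dividing the size of a log2 fold change by the root of its F. On counts simulated with as many genes raised as lowered, the same dispersion for all genes and known size factors, the fit recovered the changes put in. That tried the working of the fit only, and neither the scaling nor the selection of the listed genes. The depth of each whole library is not known from the table, and the listed genes' totals are given in the results. Members and lists were chosen with earlier results of these data known. Named members were the called kinases (8 highest, 8 lowest) and phosphatases (5 and 5) whose groups did not overlap and whose normalized counts averaged 50 or more, and every listed member of the MAP kinase, Dusp, Akt, casein kinase 2, calcineurin, PP2A core, Hippo, AMP-activated, cAMP-dependent, calmodulin kinase and Jak families; other members were named after their values were seen, to complete their families. Of each pathway list at most 3 genes a direction were named. Some results of the calcium list are not reported here. Promoters came from RefSeq (GRCr8), which had an entry for 53 of 69 members. The alternatives were other scalings and adjustments, no filter, DESeq2 1.42.0, robust = FALSE, a replicate block, an adjusted p under 0.01 and each rat left out.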

Additional observations from a re-analysis of the deposited data

Results flagged for a closer look

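In 5 of 74 groups (37 named members, each in both groups of 5 rats) a rat stood apart from the other 4 by more than Dixon's 95% critical value, 0.71 of the group's range, where chance alone flags about 1 group in 20. Camk2g was lowest in Hypothermia 1, with a normalized count of 15.7 beside 39.0 to 46.4 in the other Hypothermia rats. Dusp4 was highest in Hypothermia 1, at 9.65 beside 1.05 to 2.04. Jakmip3 was highest in Hypothermia 3, at 496 beside 375 to 393. Mapk8ip3 was highest in Hypothermia 1, at 1678 beside 1165 to 1309, and lowest in Normal 3, at 836 beside 991 to 1027. Neither Mapk8ip3 nor Jakmip3 lost its call when any rat was left out, while Camk2g was not called and Dusp4 was not tested.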

How the results depend on the processing

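On the main setting 19 kinase names were called higher and 13 lower, and 9 phosphatase names higher and 5 lower. TMM and median-of-ratios factors of the listed genes gave the same numbers, 4 and 20 for kinases and 4 and 7 for phosphatases, moving the median of all genes by -0.29 and -0.31. Totals of the listed genes gave 0 and 38, and 0 and 15. Adjustment over the tested genes only gave 22 and 22, and 13 and 8, that is every tested member, and together with TMM 9 and 22, and 7 and 8. An adjusted p under 0.01 left 10 and 2, and 3 and 1. No filter, DESeq2 and robust = FALSE kept all 4 counts within 1.5 times. With a rat left out the kinase calls ran from 12 to 19 higher and from 6 to 19 lower, and the phosphatase calls from 5 to 11 higher and from 1 to 5 lower. The replicate block gave 11 and 2, and 5 and 1. Same-numbered rats are different animals, their deviations correlated between -0.17 and 0.23 over the 5 pairs, and 0 of 10 rats correlated best with its own number. With so few pairs these values cannot exclude handling shared by number, which is not known here. Of the named members, Prkaca turned to -0.0210 under TMM (with either adjustment), -0.0451 under median-of-ratios factors and -0.98 under totals, and Ppp2cb to -0.0200 under median-of-ratios factors and -0.94 under totals. Under totals, Camk2a turned to -0.0218, Csnk2b to -0.85, Dusp16 to -0.65, Jakmip3 to -0.61, Map2k2 to -0.80, Mapk3 to -0.70, Mapk8ip3 to -0.75, Pak4 to -0.78, Ppp1r1a to -0.47, Prkab2 to -0.84, Prkag2 to -0.73 and Ptprh to -0.10. The rats' own library totals are not known, so that the scalings could not be set against depth. The other scalings came from the selected list alone, so that turning under them is no test of the authors' scaling. Low counts limit Dusp4, Map3k7cl, Stk33 and Camkv, and the cause of the lost calls was not tested.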
